A study of Homo sapiens with 6 samples.

Results

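The genes of heme synthesis and heme breakdown were followed in HepG2 cells, an established human hepatocarcinoma line, given 10 mM glycine or vehicle for 24 h. The members were taken by gene name: 7 enzymes of heme synthesis (ALAS1, ALAD, UROS, UROD, CPOX, PPOX and FECH) and 2 genes of heme breakdown (HMOX1 and BLVRB), 9 of the 57500 genes counted. Each group had 3 libraries from wild-type cells of this single line, cultured in medium that itself contains some glycine, so that the vehicle group was not free of it. The labels give no further treatment, and p-values measure the spread between these libraries. The purpose of the comparison was to find which transcripts follow glycine supplementation. The libraries held between 31795489 and 58815986 counts, and each member had between 310 and 6727 counts in every library.

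Heme synthesis begins in mitochondria, where ALAS1 condenses glycine with succinyl-CoA to 5-aminolevulinate. The middle steps run in the cytosol, and CPOX, PPOX and FECH complete the ring and insert iron back in mitochondria. Liver is, after the erythroid marrow, a main site of heme synthesis, because its cytochromes P450 need heme, and there ALAS1 is the rate-limiting enzyme and is repressed by heme itself. Heme oxygenase 1, encoded by HMOX1, opens the ring to biliverdin, iron and carbon monoxide, and biliverdin reductases make bilirubin.

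ALAD was lower with glycine, and it was the only member past the threshold (adjusted p under 0.05 in the edgeR quasi-likelihood test). In bulk RNA, fewer cells of a kind and less RNA per cell cannot be told apart. Thus 1 of 9 members was called lower and 0 were called higher. Among all 15492 tested genes, 13.3% were called, 6.54% lower and 6.71% higher. At an unadjusted p under 0.05 the members included ALAD below vehicle and 2 genes above it, UROS and HMOX1, or 33.3%, against 27.3% of all tested genes. With DESeq2 and with limma-voom, 0 members were called higher as well. The median log2 change of the 9 members was 0.04, and that of all tested genes was 0.00. The levels of the glycine and vehicle libraries did not overlap for 4 members (ALAS1, ALAD, UROS and HMOX1), while 31.6% of all tested genes showed no overlap.

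The sequence before the start of ALAD, the only member past the threshold, is shown together with that of ALAS1. The change of ALAS1, the rate-limiting enzyme, did not pass the threshold. Both sequences are the 250 bases before the RefSeq start in GRCh38.p14, written in the direction of the gene. Capitals mark matches on either strand to the GC box (GGGCGG) and to the TATA box (TATAAA). The ALAD stretch lies on the minus strand at chr9:113401285-113401534 and the ALAS1 stretch on the plus strand at chr3:52197833-52198082.
ALAD: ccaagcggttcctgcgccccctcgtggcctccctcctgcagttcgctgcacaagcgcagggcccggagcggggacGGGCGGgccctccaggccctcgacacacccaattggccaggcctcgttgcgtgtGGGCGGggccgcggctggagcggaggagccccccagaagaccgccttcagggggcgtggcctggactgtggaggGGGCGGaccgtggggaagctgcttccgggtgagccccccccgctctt
ALAS1: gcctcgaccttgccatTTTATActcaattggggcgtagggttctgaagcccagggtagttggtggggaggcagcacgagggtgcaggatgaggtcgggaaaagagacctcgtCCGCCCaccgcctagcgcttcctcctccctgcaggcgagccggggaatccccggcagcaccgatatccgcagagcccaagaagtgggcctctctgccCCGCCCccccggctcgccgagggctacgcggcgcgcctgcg

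The ALAD stretch holds 3 GC boxes and has a GC content of 74%, and the ALAS1 stretch holds 2 GC boxes and has a GC content of 67.2%. The TATA box letters in ALAS1 lie on the opposite strand, 229 to 234 bases before the start. RefSeq gives a further start for ALAD, and the 250 bases before it overlap those shown. They hold 2 GC boxes, of which the farther from the start is among the 3 already counted. Promoters of 7 members were matched, with 9 starts in all. No stretch was available for UROS and HMOX1, so neither was searched for these motifs. Of the 9 stretches, 8 hold a GC box, against 42.6% of 35116 promoter stretches of the same length. The stretches of ALAD overlap each other, as do those of PPOX. The GC content of the 9 stretches ran from 53.6% to 74%, against a median of 58% over all stretches. The share with a GC box was not adjusted for this. The core of the antioxidant response element (TGACNNNGC, read on both strands) is present in the FECH stretch and in 10.9% of all stretches. A core of the NRF1 motif (GCGCATGC, also read on both strands) is in 0 of the 9 member stretches and in 2.63% of all. These matches describe letters and are not evidence of binding.

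Levels between genes were compared as FPKM, that is, the CPM of a gene (its counts scaled to a common library size by the trimmed mean of M values) divided by the exon length of the gene in kilobases. With vehicle, UROD was the most abundant member at 36.1 ± 1.73 FPKM (SD, n = 3), and PPOX the least abundant at 2.32 ± 0.105 FPKM. In between stood HMOX1 at 27.5, ALAS1 at 25.7, BLVRB at 16.1, CPOX at 13.6, ALAD at 11.1, FECH at 7.53 and UROS at 5.68 FPKM. In this order HMOX1 and ALAS1 overlapped between libraries with vehicle, and no other neighbours did. The order of the means was the same with glycine, and there no neighbours overlapped. ALAD and FECH stood closer to each other with glycine, at a ratio of their mean FPKM of 1.14 instead of 1.48. Per-length levels depend on which isoforms the merged length includes, so the order is a description.

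**Figure D1:**
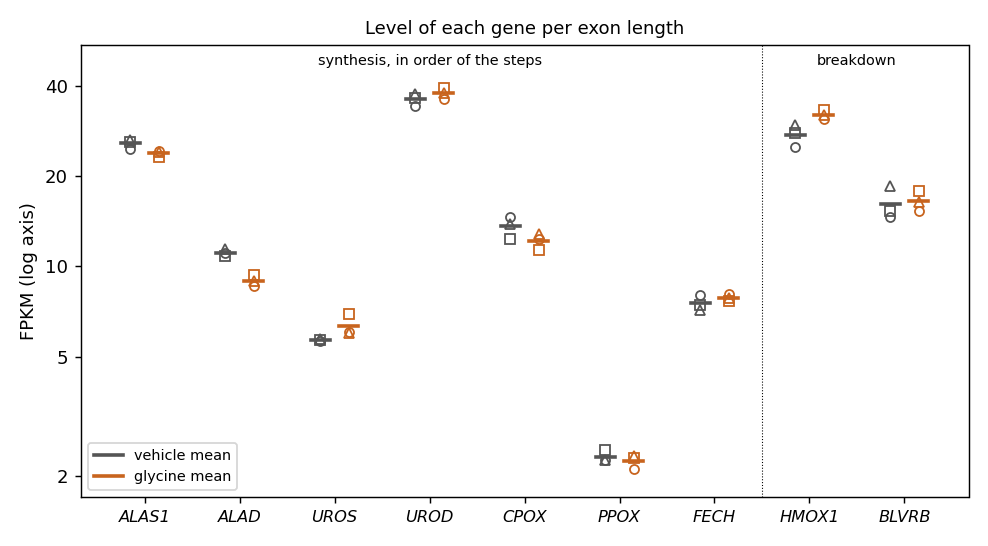
Level of each member in FPKM (log axis) with vehicle (grey) and glycine (orange), synthesis enzymes in the order of their steps and then the breakdown genes. Circles, squares and triangles are replicates 1, 2 and 3 and short lines are group means: UROD is highest in both groups and PPOX lowest.

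ALAS1 (ENSG00000023330, chromosome 3, 52198086 to 52214327) makes the committed precursor from glycine. Its level was 62.8, 66.0 and 67.2 CPM in the vehicle libraries and 61.8, 58.9 and 61.2 CPM in the glycine libraries. Every glycine library was below every vehicle library, by a narrow gap. The log2 change was -0.11 ± 0.0614 (s.e.), which is a level 7.14% lower, and it did not pass the threshold (edgeR adjusted p = 0.29). The 95% interval of the change ran from 15.3% lower to 1.78% higher.

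ALAD (ENSG00000148218, chromosome 9, 113386317 to 113401333) encodes the zinc enzyme that joins 5-aminolevulinate molecules into porphobilinogen. Its level was 55.3, 53.9 and 57.0 CPM with vehicle and 42.9, 46.6 and 44.4 CPM with glycine. The lowest vehicle library was well above the highest glycine library, and the gap between the groups exceeded the spread within either. The log2 change was -0.31 ± 0.0636 (s.e., edgeR adjusted p = 0.00632), a level 19.4% lower with a 95% interval from 26.7% to 11.3% lower. By p-value ALAD ranked 706 among the 15492 tested genes. No exon of another counted gene overlaps its exons. Within each library, the ratio of ALAD to UROD in FPKM, which does not depend on library scaling, was 0.324, 0.296 and 0.304 with vehicle and 0.237, 0.237 and 0.236 with glycine. This pair was chosen after the values were seen and was not tested.

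The summed level of 9 hepatocyte markers ran from 29594 to 33653 CPM in the vehicle libraries and from 25411 to 29108 CPM in the glycine libraries. APOB, part of this sum, alone ran from 7405 to 13184 CPM in the vehicle libraries. All 9 were expressed, 8 had a log2 change below 0, and 2 were called lower: APOA1, a lipoprotein component (log2 change -0.26, edgeR adjusted p = 0.0483), and TTR, a thyroid hormone carrier (-0.32, edgeR adjusted p = 0.00921). Of all tested genes 6.54% were called lower. At an unadjusted p under 0.05, 5 markers were below vehicle and 0 above (55.6%, against 27.3% of all tested genes). ALB had the lowest log2 change, -0.49, and was not called (edgeR adjusted p = 0.0764). The APOA1 call was lost in 9 of the 14 processing alternatives, with an adjusted p of at most 0.168. Whether the marker levels have a part in the lower ALAD level was not tested.

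**Figure D2:**
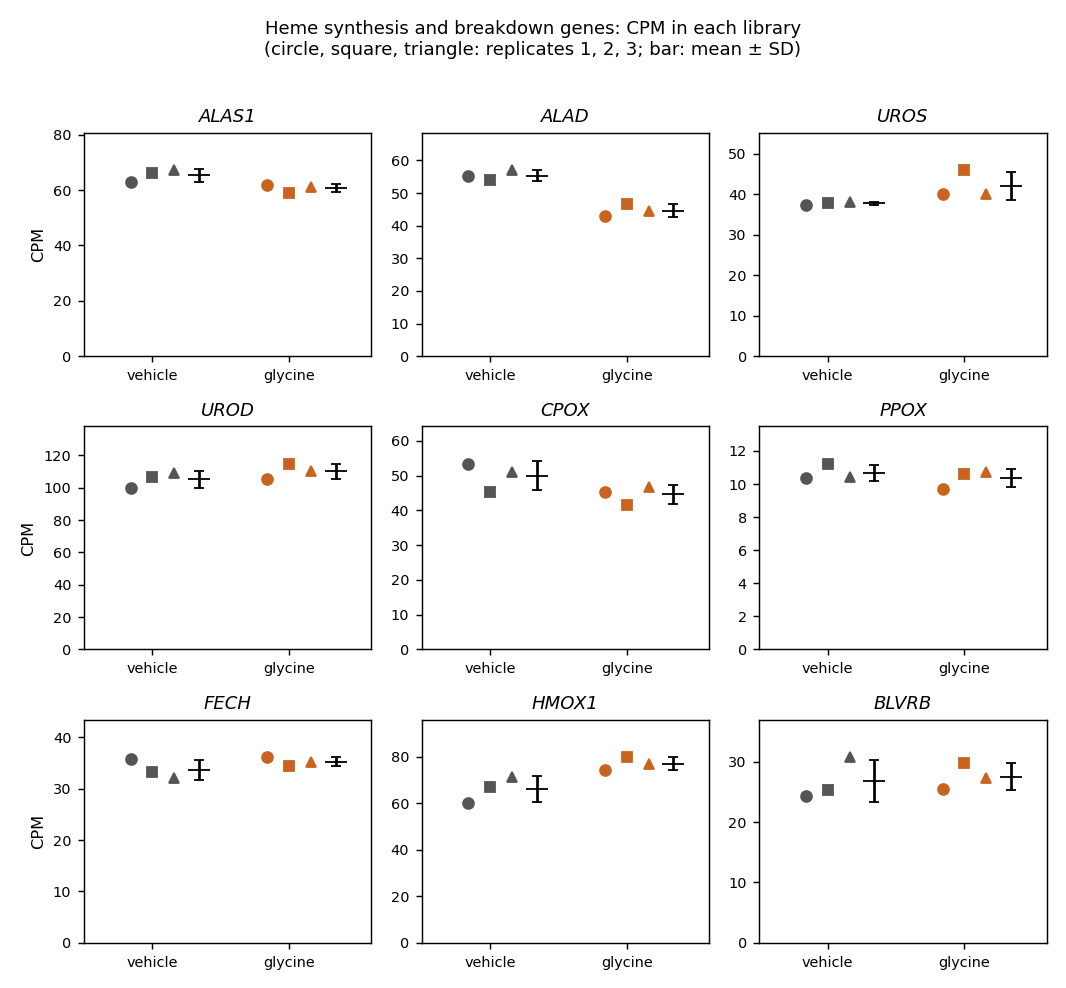
CPM of the 9 members in each library, vehicle in grey and glycine in orange, with a black bar for the group mean ± SD (n = 3) and each axis starting at 0. The ALAD libraries separate clearly, those of HMOX1, ALAS1 and UROS separate narrowly, and those of the other 5 members overlap.

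UROS (ENSG00000188690, chromosome 10, 125784980 to 125823248), which closes the tetrapyrrole ring, was at 37.3, 37.8 and 38.1 CPM with vehicle and 40.1, 45.9 and 39.9 CPM with glycine. The glycine libraries were all above the vehicle libraries, and glycine replicate 2 stood highest. The log2 change of 0.16 ± 0.0711 (s.e.) did not pass the threshold (edgeR adjusted p = 0.174), and without glycine replicate 2 it was 0.09.

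UROD (ENSG00000126088, chromosome 1, 45012147 to 45015575) removes carboxyl groups from the side chains of the ring. Its level was 99.6, 106 and 109 CPM with vehicle and 105, 115 and 110 CPM with glycine, and the groups overlapped. CPOX (ENSG00000080819, chromosome 3, 98521132 to 98593723), the next enzyme, was at 53.5, 45.4 and 51.0 CPM with vehicle and 45.4, 41.5 and 46.9 CPM with glycine. Its groups overlapped through vehicle replicate 2, and its log2 change was -0.16 ± 0.0764 (s.e., edgeR adjusted p = 0.185). Another gene on the same strand, CLDND1, covers 8.48% of the CPOX exon length and had a log2 change of 0.05.

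PPOX (ENSG00000143224, chromosome 1, 161166410 to 161178013), which oxidises protoporphyrinogen, was at 10.4, 11.2 and 10.4 CPM with vehicle and 9.71, 10.6 and 10.7 CPM with glycine. FECH (ENSG00000066926, chromosome 18, 57548283 to 57586772), the iron-inserting enzyme, was at 35.8, 33.3 and 32.0 CPM with vehicle and 36.2, 34.4 and 35.1 CPM with glycine. In both genes the groups overlapped. B4GALT3, on the opposite strand, covers 24.3% of the PPOX exon length, and it had a log2 change of 0.03, so that PPOX counts are less certain if strand was not used in counting. The log2 changes were 0.07 for UROD, -0.04 for PPOX and 0.06 for FECH, with edgeR adjusted p of 0.536, 0.796 and 0.603.

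HMOX1 (ENSG00000100292, chromosome 22, 35380361 to 35394214), the inducible heme oxygenase and a known target of NRF2, was at 60.3, 66.8 and 71.1 CPM with vehicle and 74.4, 79.9 and 76.8 CPM with glycine. Every glycine library was above every vehicle library, and the vehicle libraries were more widely spread. The log2 change was 0.22 ± 0.0708 (s.e.), a level 16.7% higher with a 95% interval from 4.93% to 29.7% higher, and after adjustment it lay just outside the threshold (edgeR adjusted p = 0.0554). Among the fits made without a single library, HMOX1 was called only without vehicle replicate 3. Without vehicle replicate 3, which had the highest HMOX1 level of its group, the adjusted p was 0.0234, and without vehicle replicate 1, which had the lowest, it was 0.242 with a log2 change of 0.15. Vehicle replicate 3 was the highest library of its group for 6 of the 9 members and vehicle replicate 1 the lowest for 6.

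The ratio of HMOX1 to ALAS1 in FPKM within each library was 1.01, 1.07 and 1.12 with vehicle and 1.27, 1.43 and 1.32 with glycine. The means were 1.07 ± 0.0522 and 1.34 ± 0.0813 (SD, n = 3). This pair too was chosen after the values were seen, and no test was made of it.

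BLVRB (ENSG00000090013, chromosome 19, 40447789 to 40465840), a biliverdin and flavin reductase, was at 24.4, 25.4 and 30.8 CPM with vehicle and 25.4, 29.8 and 27.3 CPM with glycine. It was the most variable member, with a coefficient of variation of 12.8% between vehicle libraries, and the log2 change was 0.04 with a standard error of 0.0933 (edgeR adjusted p = 0.838). The estimate went below 0 when vehicle replicate 1 or glycine replicate 2 was left out. For the members as a whole the 95% intervals lay between 0.733-fold and 1.3-fold, so that changes beyond these bounds were outside the interval of every member.

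The other enzymes of these steps, in a list of 3 genes, gave 0 calls in either direction in edgeR, with 0 at an unadjusted p under 0.05 as well. HMOX2, the constitutive heme oxygenase, averaged 77.4 ± 4.76 CPM in vehicle libraries and 74.5 ± 5.19 CPM in glycine libraries (SD, n = 3). Its log2 change of -0.05 was not called (edgeR adjusted p = 0.673). BLVRA, the main biliverdin reductase of adult cells, differed by 0.09 on the log2 scale (edgeR adjusted p = 0.413). ALAS2, the erythroid form of the ALAS enzyme, had 5 counts over all 6 libraries and was not tested, and no library exceeded 0.0573 CPM. None of the 11 erythroid markers reached 1 CPM in any library, and 1, AHSP, had no count at all. Of 6 macrophage markers 5 stayed under 1 CPM. The exception, CD68, is a lysosomal protein also made by other cells, and it rose from 1.33 ± 0.0859 to 2.07 ± 0.133 CPM (log2 change 0.63, edgeR adjusted p = 0.0226). The CD68 call was lost with DESeq2 (adjusted p = 0.0531) and without any library other than vehicle replicate 3 (up to 0.0845), and other genes cover 85.8% of its exon length.

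Over all these further lists, markers included, 2 genes were called higher and 9 lower in edgeR, 1 and 9 in DESeq2, and 2 and 9 in limma-voom. To compare with each list, 6.71% of all tested genes were called higher and 6.54% lower in edgeR. An unadjusted p under 0.05 was reached by 27.3% of all tested genes. Among carriers of heme, porphyrins and their precursors, 3 of 16 tested genes were called lower and 0 higher. At an unadjusted p under 0.05 there were 6 below vehicle and 1 above (43.8% of the list). The median log2 change of this list was -0.13. ABCB6, a porphyrin transporter, was at 28.7, 34.4 and 32.6 CPM with vehicle and 19.3, 20.7 and 18.3 CPM with glycine. Its log2 change was -0.71 ± 0.083 (s.e., edgeR adjusted p = 9.24e-05), a larger estimate than that of any of the 9 members. ABCB6 shares 54.5% of its exon length with ATG9A on the same strand, and ATG9A was also lower (log2 change -0.24, edgeR adjusted p = 0.0267), so the assignment of reads between them is uncertain.

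HEBP1, a cytosolic protein that binds heme, was at 71.2, 76.4 and 72.2 CPM with vehicle and 51.6, 52.7 and 51.6 CPM with glycine. Its log2 change was -0.49 ± 0.061 (s.e., edgeR adjusted p = 0.000146). The groups were far apart against a spread of a few CPM. HPX, the plasma protein that scavenges free heme and is secreted by hepatocytes, went from 27.1 ± 1.57 to 22.3 ± 1.26 CPM (SD, n = 3), or by -0.28 on the log2 scale (edgeR adjusted p = 0.0274). The HPX call did not hold in 4 of the 6 fits made without a single library, where the adjusted p reached 0.105. SLC25A38, which carries glycine into mitochondria for the ALAS reaction, averaged 47.2 ± 0.484 CPM in vehicle libraries and 42.6 ± 2.47 CPM in glycine libraries, and its log2 change of -0.15 did not pass the threshold (edgeR adjusted p = 0.171). SLC25A38 was picked for its role after the values were seen.

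**Figure D3:**
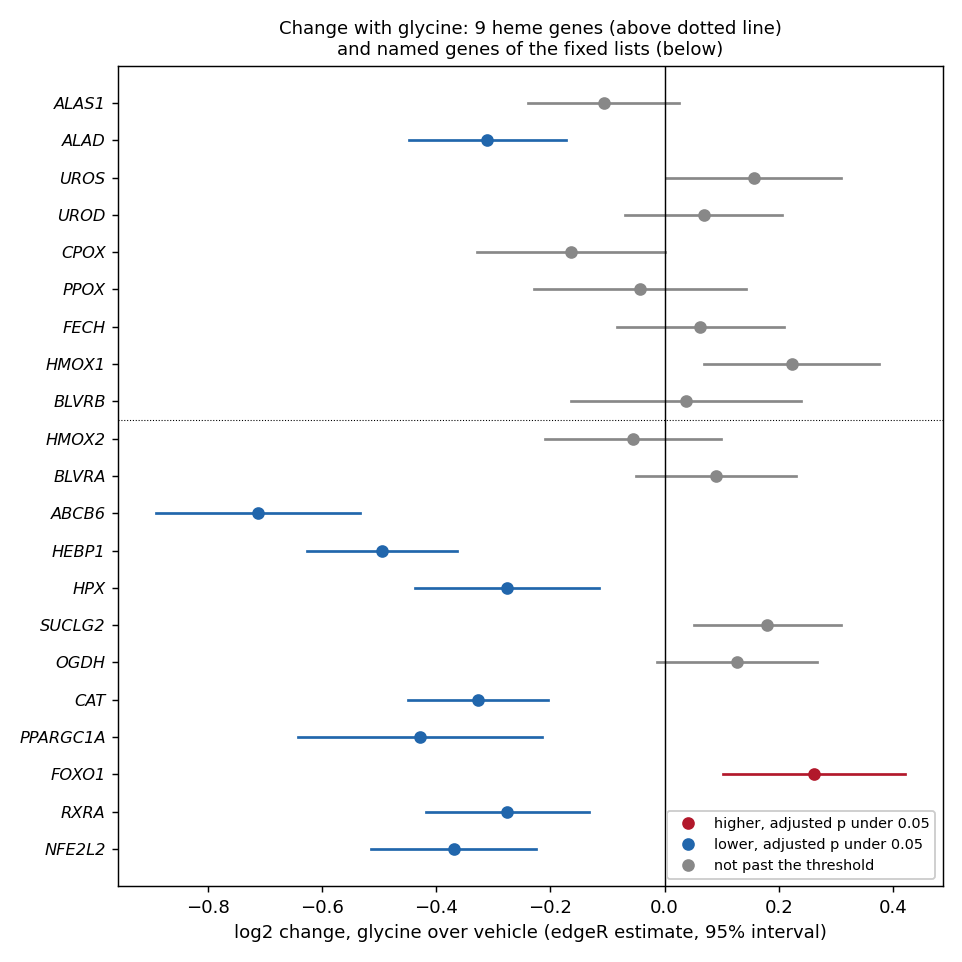
Log2 change of glycine over vehicle (edgeR estimate with its 95% interval) for the 9 members, above the dotted line, and for named genes of the fixed lists, below it, where blue marks genes called lower, red higher and grey neither. ALAD is the blue member, and ABCB6 at -0.71 lies farthest from 0.

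Genes that supply succinyl-CoA and iron-sulfur clusters to the pathway gave 0 calls among 9 tested in edgeR, while an unadjusted p under 0.05 was reached by 1 gene above and 2 genes below vehicle. OGDH and SUCLG2, both of the citric acid cycle around succinyl-CoA, had log2 changes of 0.13 and 0.18 (edgeR adjusted p of 0.23 and 0.0642). Of 11 tested genes of heme a and heme c assembly and of heme proteins, 1 was called lower and 0 higher, and at an unadjusted p under 0.05 there were 2 below vehicle and 1 above. The called gene was CAT, the heme enzyme catalase, which averaged 116 ± 0.766 CPM in vehicle libraries and 92.8 ± 0.646 CPM under glycine (SD, n = 3), a level 20.3% lower (edgeR adjusted p = 0.00209).

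Of 10 regulators of ALAS1, 2 were called lower and 1 higher, and 3 were below and 1 above vehicle at an unadjusted p under 0.05. PPARGC1A, the coactivator that raises ALAS1 transcription in fasted liver, went from 12.3, 10.2 and 11.1 CPM with vehicle to 7.86, 8.05 and 9.03 CPM with glycine. Its log2 change was -0.43 ± 0.0994 (s.e., edgeR adjusted p = 0.0125), and without vehicle replicate 1 or glycine replicate 2 the adjusted p was 0.0504 and 0.0506. RXRA, the partner of the nuclear receptors that induce ALAS1 with drugs, differed by -0.28 on the log2 scale (edgeR adjusted p = 0.0148), and without glycine replicate 3 the adjusted p was 0.0691. FOXO1, a forkhead factor that acts with PPARGC1A, was at 33.5, 35.5 and 31.7 CPM with vehicle and rose to 40.1, 37.6 and 43.2 CPM with glycine (0.26 on the log2 scale, edgeR adjusted p = 0.0329). Its call was lost with the replicate block (adjusted p = 0.0546) and in 4 of the 6 fits without a library, where the adjusted p reached 0.162.

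Of 8 tested regulators of HMOX1, 1 was called lower and 0 higher. Among all tested genes 6.54% were called lower and 6.71% higher. An unadjusted p under 0.05 was reached by 4 genes below vehicle and 1 above. That is 62.5% of the list, against 27.3% of all tested genes. The list is small and was chosen with earlier results of these data known. NFE2L2, which encodes NRF2, the activator of HMOX1, was at 221, 225 and 235 CPM with vehicle and 173, 189 and 165 CPM with glycine. Its log2 change was -0.37 ± 0.0667 (s.e., edgeR adjusted p = 0.00271). The called change of this transcript and the uncalled change of the HMOX1 transcript had opposite signs. NRF2 protein and its activity are not measured by these counts. Other genes cover 20.9% of the NFE2L2 exon length. BACH1, the heme-sensing repressor of HMOX1, differed by -0.14 on the log2 scale (edgeR adjusted p = 0.267) and overlapped between groups, and was picked for its role after the values were seen.

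**Figure D4:**
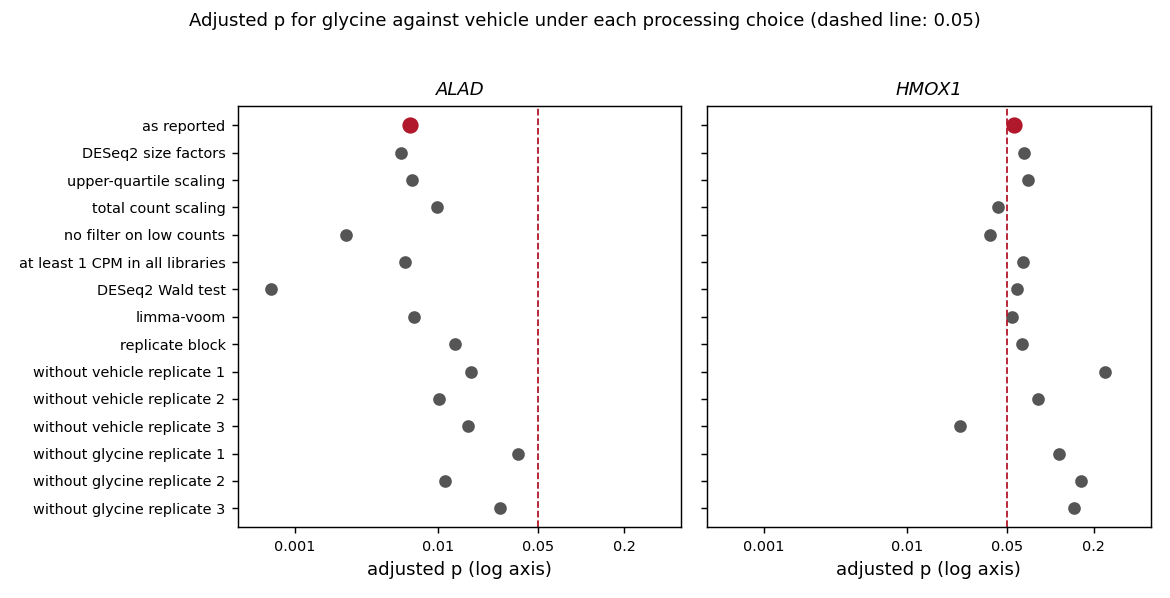
Adjusted p of ALAD and HMOX1 for glycine against vehicle as reported (red) and under 14 other processing choices (grey), on a log axis with the threshold of 0.05 dashed. ALAD stays to the left of the line throughout, with a highest value of 0.0363, and HMOX1 lies on both sides of it, from 0.0234 to 0.242.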

How the data were processed

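RNA of 6 HepG2 libraries was sequenced, 3 with vehicle and 3 with glycine, and grouped by their labels. The deposited values are raw read counts for each gene as the authors counted them, beside its merged exon length. Per the submitters' processing notes, Trimmomatic 0.36, STAR 2.5.2b and featureCounts of Subread 1.5.2 were used with GRCh38. The annotation release, the strand setting and the handling of reads in overlapping genes are not given in the sources used here. Symbols were matched by Ensembl identifier for 56410 of 57500 genes, all members included.

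Tests were two-sided and used edgeR 4.0.16 (R 4.3.3), by quasi-likelihood, with the group as the only term. Its expression filter (minimum count 10, minimum total 15) passed all 9 members, and scaling used TMM. P-values were adjusted by Benjamini-Hochberg over 15492 genes. Standard errors are the log2 change divided by the square root of F, and 95% intervals use the t distribution of the fit. CPM use the scaled library sizes, in which 3 counts were worth 0.0513 to 0.094 CPM. This covers counting error only. The fit was tested on simulated data. Alternatives were other scalings and filters, DESeq2 1.42.0, limma 3.58.1 with voom, fits without single libraries, and the replicate number as a block. The members and lists were chosen with earlier results of these data known. Named besides the members are the genes called in each list, up to 5, or the 2 most abundant where none was called, and genes whose exons overlap. A gene of these lists, 1 in all, is not reported here.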

Additional observations from a re-analysis of the deposited data

How the results depend on the processing

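Of the 9 members, ALAD stayed below the adjusted p threshold in all 14 alternatives, with a log2 change from -0.34 to -0.29 and an adjusted p from 0.000678 to 0.0363. HMOX1 was called higher in 3 of the 14: with total count scaling (log2 change 0.24, adjusted p = 0.0433), with no filter on low counts (0.23, 0.0375) and without vehicle replicate 3 (0.28, 0.0234). The members called higher were then 1 instead of 0, and between 0 and 1 when single libraries were dropped. BLVRB, uncalled throughout, ranged from -0.038 without vehicle replicate 1 to 0.15 without vehicle replicate 3, and was at -0.026 without glycine replicate 2, so its sign reversed in 2 fits. The other 6 members were uncalled in every alternative and kept their sign. Over all tested genes, 1040 were called higher and 1013 lower, and without a library from 587 to 926 and from 655 to 1010. Each of these fits has fewer samples. Without vehicle replicate 1, glycine replicate 1, glycine replicate 2 or glycine replicate 3, the higher calls fell to 590, 594, 617 and 587, and the lower calls to 655 without glycine replicate 2. In the other lists 2 genes were called higher, 1 with DESeq2, 1 with the replicate block, and from 0 to 1 without a library. The cause was not tested. The replicate block, with the number in the labels, gave an adjusted p of 0.0131 for ALAD and 0.0635 for HMOX1 and called 866 genes higher and 918 lower. Deviations of same-numbered libraries correlated at -0.0577, -0.0268 and -0.00258. Where the numbers differed, the correlation ran from -0.198 (vehicle replicate 2 with glycine replicate 3) up to 0.214. The latter value was reached by vehicle replicate 2 with glycine replicate 1 and by vehicle replicate 1 with glycine replicate 3. With only 3 libraries per group, these values cannot show whether the numbers mark paired samples. The paper describes replicates as experiments of different days, with control and treated cells together in each run. It does not say that the label numbers mark those days.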
